A study of Homo sapiens with 8 samples.

Results

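The zinc finger genes of human chromosome 19 were taken as the protein-coding genes there whose symbol is ZNF followed by a number. In the annotation lifted to hg19 (GRCh37), 246 of the 1436 protein-coding genes of the chromosome met this rule, out of 19813 protein-coding genes in all. Of the 246, 240 have a symbol of digits only and 6 have 1 letter after the digits. The 1188 other protein-coding genes of chromosome 19 served as the comparison, and 2 read-through genes were left out. They include 18 zinc finger genes with other names (ZFP, ZSCAN, ZBTB, ZIK and ZIM).

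The data came from U937, a human monocytic cell line derived from a histiocytic lymphoma. A stable line made from 1 clone carried HA-tagged AML1-ETO, the fusion of the RUNX1 Runt domain with ETO. Another line made from 1 clone carried HA-tagged ETO2-GLIS2, the fusion of ETO2 with the zinc fingers of GLIS2. Retroviral vectors had delivered the fusions, and 5 µg/ml doxycycline switched them on for either 12 or 48 h. Beads against the HA tag then pulled down the bound chromatin for sequencing (ChIP-seq). The protocol text gives 48 h for every sample, so the times were read from the titles and treatment tags. The 8 libraries comprised 4 ChIP libraries with a peak list and 4 inputs, 1 ChIP library per condition. No difference between conditions therefore has a replicate check, and no p-value was computed. All intervals are 95% intervals, exact (Clopper-Pearson) for a share, Newcombe for a difference of shares and from order statistics for a median. They cover counting error only, since neighbouring genes and peaks are not independent samples.

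Most C2H2 zinc finger genes on this chromosome lie in tandem clusters that grew by gene duplication. A typical member has a start site in a CpG-rich promoter, a short exon for a KRAB domain and one long last exon that codes for the whole array of fingers. Each finger holds a zinc ion between cysteines and histidines and reads a few bases of DNA, and many KRAB zinc finger proteins bind transposable elements. The KRAB domain recruits TRIM28, which brings the histone methyltransferase SETDB1 and HP1 proteins and silences the bound site. The clusters themselves are known to carry the repressive mark H3K9me3 over the 3' parts of the genes.

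The annotated coding sequences were read for fingers first. Of the 245 members whose coding sequence reads without a break in GRCh37, each held at least 1 finger, with a median of 12 (11 to 13) and a range from 1 to 36. The coding sequence of ZNF274 breaks in this assembly and was left out of the finger counts. A short residue pattern from the start of the KRAB domain was present in 186 of 246 members (75.6%, 69.8 to 80.8) and in 98 of 262 ZNF genes of other chromosomes (37.4%, 31.5 to 43.6). The last exon had a median length of 3301 bp in members, against 716 bp in the other genes of chromosome 19 and 2888 bp in ZNF genes elsewhere.

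The sequences below show what lay under the strongest member peaks, as 200 bases centred on the summit and read 5′ to 3′ on the gene's strand. Capitals mark matches to TGTGGT or TGCGGT (the Runt sequence), CCGGAAGT (ETS), CAGCTG (E-box) or TGGGGGG (the core read by GLIS zinc fingers) on either strand. ZNF529, ZNF584 and ZNF799 had the 3 strongest AML1-ETO promoter peaks of the 48 h list, ZNF787, ZNF846 and ZNF653 the 3 strongest of ETO2-GLIS2, and ZNF574 had the strongest peak in a last exon.
ZNF529 (promoter, chr19:37064036-37064235, minus strand): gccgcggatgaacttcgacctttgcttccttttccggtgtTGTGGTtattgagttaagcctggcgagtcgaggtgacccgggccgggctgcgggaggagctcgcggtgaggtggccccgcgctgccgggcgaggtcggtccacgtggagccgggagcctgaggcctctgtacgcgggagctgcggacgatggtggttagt
ZNF584 (promoter, chr19:58919703-58919902, plus strand): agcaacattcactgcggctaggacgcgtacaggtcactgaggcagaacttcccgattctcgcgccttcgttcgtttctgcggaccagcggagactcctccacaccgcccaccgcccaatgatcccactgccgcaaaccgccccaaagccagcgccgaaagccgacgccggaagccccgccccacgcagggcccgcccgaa
ZNF799 (promoter, chr19:12511595-12511794, minus strand): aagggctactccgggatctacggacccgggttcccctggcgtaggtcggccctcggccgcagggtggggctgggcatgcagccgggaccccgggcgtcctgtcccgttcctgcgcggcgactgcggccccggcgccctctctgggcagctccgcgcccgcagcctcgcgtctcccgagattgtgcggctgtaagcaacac
ZNF787 (promoter, chr19:56632069-56632268, minus strand): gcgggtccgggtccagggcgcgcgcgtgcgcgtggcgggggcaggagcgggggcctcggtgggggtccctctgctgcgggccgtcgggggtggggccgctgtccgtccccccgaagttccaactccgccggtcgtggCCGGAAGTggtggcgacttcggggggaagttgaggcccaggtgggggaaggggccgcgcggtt
ZNF846 (promoter, chr19:9879126-9879325, minus strand): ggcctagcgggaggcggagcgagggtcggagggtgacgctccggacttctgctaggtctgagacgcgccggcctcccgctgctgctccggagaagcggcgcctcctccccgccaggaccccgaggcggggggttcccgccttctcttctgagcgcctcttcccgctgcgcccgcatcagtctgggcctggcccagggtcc
ZNF653 (promoter, chr19:11615851-11616050, minus strand): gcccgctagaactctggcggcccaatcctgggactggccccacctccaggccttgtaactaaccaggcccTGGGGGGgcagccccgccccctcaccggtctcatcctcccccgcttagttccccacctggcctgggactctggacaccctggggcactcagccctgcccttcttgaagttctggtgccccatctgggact
ZNF574 (last exon, chr19:42583797-42583996, plus strand): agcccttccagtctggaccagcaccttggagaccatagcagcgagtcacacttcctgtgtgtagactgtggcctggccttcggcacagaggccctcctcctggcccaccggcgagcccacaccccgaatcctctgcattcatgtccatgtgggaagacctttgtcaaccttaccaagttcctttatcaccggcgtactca

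The ZNF529 window held 1 Runt match, the ZNF787 window 1 ETS match and the ZNF653 window 1 GLIS match. The windows of ZNF584, ZNF799, ZNF846 and ZNF574 held 0 matches to any of the 4 sequences. G and C made up between 66% and 77.5% of the bases in the 6 promoter windows and 58% at ZNF574.

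The first question was how often the fusion proteins were found at the members' promoters, taken as 1 kb to either side of any annotated start site. Both proteins had promoter peaks at fewer members than other genes of the chromosome. AML1-ETO had a summit at 81 of 246 member promoters at 12 h (32.9%, 27.1 to 39.2), against 53.4% of the other genes. At 48 h it had one at 102 members (41.5%, 35.2 to 47.9), against 61.9%. ETO2-GLIS2 had a promoter summit at 54 members at 12 h (22.0%, 16.9 to 27.7) and at 59 members at 48 h (24.0%, 18.8 to 29.8). The shares of the other genes in the ETO2-GLIS2 lists were 44.6% and 48.4%.

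The members' promoter share was lower by 20.4 percentage points for AML1-ETO at 12 h (difference -20.4, -26.7 to -13.7) and likewise at 48 h (-20.4, -27.0 to -13.6). The ETO2-GLIS2 differences were -22.7 points (-28.2 to -16.4) and -24.4 points (-30.1 to -18.0). None of these 4 intervals included 0. As a ratio, members had a promoter summit 0.617 and 0.670 times as often as the other genes for AML1-ETO, and 0.492 and 0.496 times as often for ETO2-GLIS2. The lists were not of equal length, with 70833 and 105769 AML1-ETO peaks and 28325 and 30096 ETO2-GLIS2 peaks, so shares are compared between gene groups within a list.

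**Figure D1:**
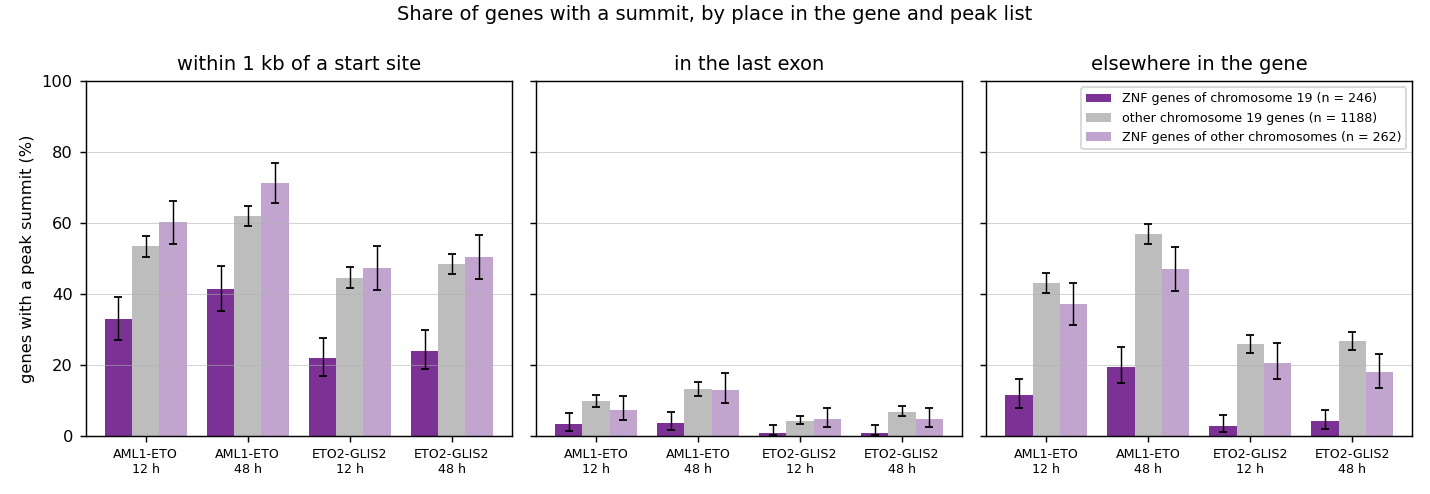
Bars give the percentage of genes with a peak summit within 1 kb of a start site, in the last exon or elsewhere in the gene, for the 4 peak lists, with 95% Clopper-Pearson intervals. The zinc finger genes of chromosome 19 (n = 246) have the lowest bar of the 3 gene groups in every panel and list, for example 24.0% against 48.4% and 50.4% at promoters in the ETO2-GLIS2 48 h list.

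ZNF genes of other chromosomes had higher promoter shares. Of 262 such genes, 60.3% and 71.4% had an AML1-ETO promoter summit at 12 and 48 h, and 47.3% and 50.4% an ETO2-GLIS2 summit. The members of chromosome 19 lay below them by 27.4 points (difference -27.4, -35.4 to -18.8), 29.9 points (-29.9, -37.8 to -21.4), 25.4 points (-25.4, -33.0 to -17.2) and 26.4 points (-26.4, -34.2 to -18.1). The non-members inside the clusters, some of them zinc finger genes with other names, were closer to the members. Of the 162 non-members inside the zinc finger clusters of chromosome 19, 34.6% and 43.8% had AML1-ETO at the promoter, and 26.5% and 28.4% had ETO2-GLIS2. All 246 members, those outside the clusters included, were compared with these neighbours, a set chosen after its values were seen. The differences were -1.64 points (-11.1 to 7.56), -2.36 points (-12.1 to 7.33), -4.59 points (-13.3 to 3.75) and -4.41 points (-13.3 to 4.15), and all 4 intervals included 0. The 235 members in the clusters had 31.1%, 40%, 20.4% and 22.1%, and the 11 outside them had 72.7%, 72.7%, 54.5% and 63.6%. Cluster 9 at the end of the long arm went the other way. At 48 h, 49.2% of its 59 members and 25% of its 48 non-members had AML1-ETO, and 35.6% and 14.6% had ETO2-GLIS2. In the other clusters pooled, a split also made after the values were seen, 176 members lay below 114 non-members. The differences were -11.99, -14.8, -12.8 and -16.6 points, and all 4 intervals were below 0. These clusters differed, and clusters 4, 6 and 3 held only 2, 5 and 8 non-members. AML1-ETO shares were higher in members in clusters 2, 4, 6 and 7, and lower in clusters 3 and 8. At 12 h they were 53.3% against 43.6% in cluster 2 and 36% against 75% in cluster 3. ETO2-GLIS2 shares were lower in members in all of these but cluster 4.

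Of the 246 members, 138 (56.1%) had no promoter summit in any of the 4 lists, against 32.2% of the other genes. A promoter summit in all 4 lists was seen at 43 members (17.5%), against 34.5%. A further 22 members had AML1-ETO at both times and no ETO2-GLIS2, and 18 had AML1-ETO at 48 h only. These are 8.94% and 7.32% of the members, near the 6.48% of the other genes with either pattern. ETO2-GLIS2 without AML1-ETO at any time was seen at 1 member in both lists, at 1 at 12 h and at 2 at 48 h. The shares of 0.407%, 0.407% and 0.813% were near the 0.589%, 0.673% and 0.842% of the other genes. No member had AML1-ETO at 12 h and ETO2-GLIS2 but lacked AML1-ETO at 48 h. Among the other genes, 1.68% had this with ETO2-GLIS2 at both times, 0.168% with it at 12 h only and 0.337% at 48 h only.

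Promoters bound by ETO2-GLIS2 were nearly always also in the AML1-ETO list, in members as in other genes. At 48 h, 56 of the 59 members with ETO2-GLIS2 had an AML1-ETO summit (94.9%, 85.9 to 98.9), against 92.9% of the other genes. At 12 h 48 of 54 had one (88.9%, 77.4 to 95.8), against 89.1%. Counted by gene, the reverse share was lower in members than in other genes. Of the 102 members with AML1-ETO at 48 h, 54.9% (44.7 to 64.8) also had ETO2-GLIS2, against 72.7% (69.3 to 75.9) of 735 other genes. At 12 h the shares were 59.3% (47.8 to 70.1) and 74.4% (70.9 to 77.8). By peak overlap of at least 1 bp, 46 of 56 ETO2-GLIS2 promoter peaks at members overlapped an AML1-ETO peak at 12 h (82.1%, 69.6 to 91.1) and 58 of 62 at 48 h (93.5%, 84.3 to 98.2), close to the 80.4% and 94.4% of the other genes. In reverse, ETO2-GLIS2 peaks overlapped 44.2% (34.9 to 53.9) and 48% (39.0 to 57.1) of the members' AML1-ETO promoter peaks, against 53.1% (49.8 to 56.3) and 49.1% (46.0 to 52.1) in the other genes, with intervals that overlap. With the summits required to lie within 200 bp of each other, the members' shares of ETO2-GLIS2 peaks were 39.3% and 59.7% (46.5 to 72.0). Those of the other genes were 40.35% and 48.2% (44.4 to 52.1), with intervals that overlap.

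Most member promoters in a 12 h list were also in the 48 h list, as in the other genes. Of 81 members with AML1-ETO at 12 h, 79 had it at 48 h (97.5%, 91.4 to 99.7, against 92.9% of the other genes), and 23 further members had it at 48 h alone. ETO2-GLIS2 was found at 48 h at 47 of the 54 members bound at 12 h (87.0%, 75.1 to 94.6), against 89.2%.

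The strength of a peak was read as its rank by -log10 q within its own list, in percent of the list, where a low value is a strong peak. Member promoter peaks were of middling rank. The median was 39.2% (31.4 to 44.1) of the AML1-ETO 12 h list and 19.7% (16.2 to 23.2) at 48 h, against 35.4% and 25.3% for promoter peaks of other genes. In the ETO2-GLIS2 lists the medians were 41.0% (32.5 to 54.3) and 33.1% (28.0 to 50.01), against 40.3% and 33.1%. Very strong peaks were fewer among members in the ETO2-GLIS2 48 h list, the one list where the intervals of the shares did not overlap. The strongest 10% of the list held 3.23% of member promoter peaks there (0.393 to 11.2), against 14.7% for the other genes (12.1 to 17.6). In ETO2-GLIS2 at 12 h the shares were 5.36% (1.12 to 14.9) and 13.0% (10.4 to 15.9). In AML1-ETO they were 7.97% (3.71 to 14.6) and 15.4% (13.2 to 17.9) at 12 h, and 20.8% (14.1 to 29.0) and 24.3% (21.7 to 26.9) at 48 h.

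The members' promoter peaks had median widths of 422 and 789 bp in the AML1-ETO lists and of 478 and 469 bp in those of ETO2-GLIS2. The other genes had 517, 790.5, 555 and 592.5 bp in the same order. The widest member peak lay at ZNF296, with 7306 bp in the AML1-ETO 48 h list.

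ZNF529, with 9 fingers, had the member promoter peak with the lowest percent rank of all lists. Its AML1-ETO peak ranked at 2.63% of the list at 12 h and at 0.613% at 48 h, with 29.2- and 54.3-fold enrichment over background, and it had no ETO2-GLIS2 promoter peak at either time. ZNF584 (8 fingers, KRAB pattern) ranked at 1.74% and 1.62% in the AML1-ETO lists and at 38.2% and 20.01% in the ETO2-GLIS2 lists. ZNF799 (15 fingers) ranked at 4.49% and 1.65% in the former and at 74.0% and 49.9% in the latter. In the 200 bp around its summits, some 32-base words occurred at more than 1 place in the genome. Their share was 27.8% and 58.6% at the AML1-ETO summits and 27.8% and 50.9% at those of ETO2-GLIS2. The part of repeated sequence in these ranks was not tested. All 3 genes thus stood far higher in the AML1-ETO lists.

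ZNF787 (7 fingers, no KRAB pattern) was strong for both proteins. Its promoter peak ranked at 0.784% and 2.54% of the AML1-ETO lists at 12 and 48 h, and at 5.02% and 4.15% of the ETO2-GLIS2 lists, where the 48 h value was the highest rank of any member. The ETO2-GLIS2 peak was 1567 bp wide at 12 h and 1965 bp wide at 48 h, the latter being the widest at a member promoter in that list. ZNF627 (11 fingers, KRAB pattern) ranked at 1.81% and 2.28% in the AML1-ETO lists and at 10.3% and 12.1% in those of ETO2-GLIS2. ZNF846 (11 fingers, KRAB pattern) ranked at 9.38% for ETO2-GLIS2 at 48 h. Its strongest ETO2-GLIS2 peak at 12 h (14.4%) and its AML1-ETO peak at 48 h (11.5%) lay at another start site, 17533 bp away in the case of AML1-ETO, and it had no AML1-ETO promoter peak at 12 h. ZNF101 (9 fingers, KRAB pattern) had the widest ETO2-GLIS2 promoter peak at 12 h, with 1602 bp and a rank of 7.63%.

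At the 56 members with both proteins at 48 h, the AML1-ETO peak had the better rank at 48 and the ETO2-GLIS2 peak at 8 (14.3%, against 21.9% of 534 other genes). The percent of a list depends on its length, and the AML1-ETO list was the longer. By plain rank number the split turned, with the better number in the AML1-ETO list at 20 members and in the ETO2-GLIS2 list at 36. The summits of the 2 proteins lay a median of 168.5 bp apart and within 200 bp of each other at 31 members (55.4%, against 50.6%). The AML1-ETO peak was wider at 46 members, with a median width ratio of 2.19, against 2.25 at the other genes. Members leaning most to AML1-ETO were ZNF837 (10.2% against 86.9%), ZNF527 (19.3% against 86.8%) and ZNF773 (8.57% against 64.7%). Those leaning most to ETO2-GLIS2 were ZNF414 (92.02% for AML1-ETO against 29.4%), ZNF653 (28.2% against 10.1%) and ZNF579 (19.8% against 10.7%). These 3 had 3, 5 and 8 fingers and no KRAB pattern. ZNF837 also had no KRAB pattern and had 8 fingers. At ZNF414 the 48 h summits lay 1391 bp apart, and at 12 h its ranks leaned to AML1-ETO (35.3% against 59.5%).

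**Figure D2:**
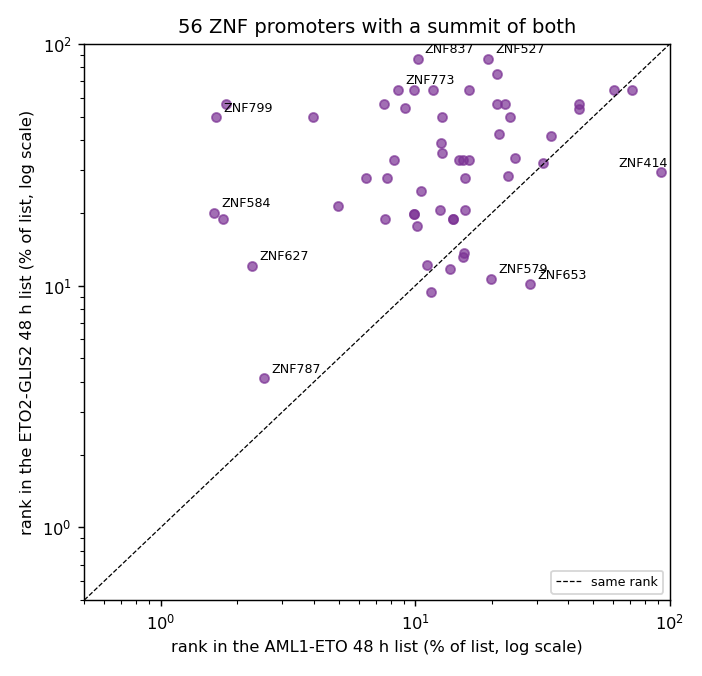
Each point is 1 of the 56 zinc finger genes with a promoter summit of both proteins at 48 h, placed by the rank of its strongest promoter peak in the AML1-ETO list (x axis) and in the ETO2-GLIS2 list (y axis), both in percent of the list on log scales. Points above the dashed line rank better for AML1-ETO (48 genes) and points below it better for ETO2-GLIS2 (8 genes) in percent of a list, a split that turns to 20 and 36 genes by plain rank number.

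The position of the AML1-ETO summit at 48 h also differed from that in other genes. There the strongest promoter summit lay a median of 79 bp downstream of the nearest start site in members (32 to 117), against 18 bp upstream in other genes (median -18, -32 to -1). It was downstream of the start at 70.6% of members (60.8 to 79.2) and at 45.4% of other genes (41.8 to 49.1). At 12 h the AML1-ETO medians were 67 bp (6 to 114) and 2.5 bp (-24 to 22), with intervals that overlap. For ETO2-GLIS2 the members' medians of 17.5 bp (-11 to 82) and 50 bp (-9 to 159) had intervals that included 0.

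**Figure D3:**
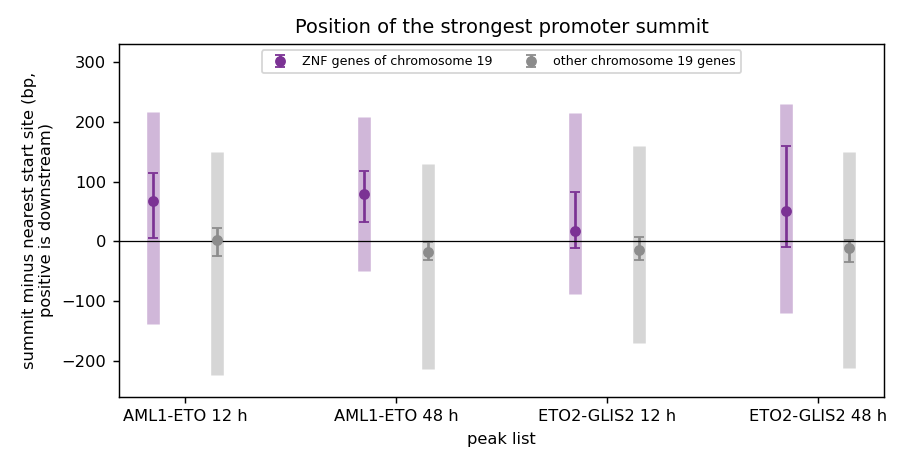
Points give the median signed distance in bp from the nearest start site to the strongest promoter summit, with 95% order-statistic intervals as error bars and the range from the lower to the upper quartile as thick bars, for zinc finger genes of chromosome 19 and other genes of the chromosome in each list. The members' AML1-ETO summits sit downstream of the start at 67 and 79 bp, and the other genes' medians lie between -18 and 2.5 bp.

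A start site of another gene within 1 kb went with a higher promoter share of both proteins in other genes, and of ETO2-GLIS2 in members. Among the 40 members with such a neighbour, 47.5% and 55% had AML1-ETO at the promoter and 40% and 42.5% had ETO2-GLIS2, against 30.1%, 38.8%, 18.4% and 20.4% of the 206 members without one. The intervals of these 2 sets of members overlapped in the AML1-ETO lists and not in those of ETO2-GLIS2. Between 14.4% and 17.7% of the members' distinct promoter peaks in a list also lay within 1 kb of a start site of a gene that is not a member, and the gene such a peak belongs to cannot be told from the list. Members without a neighbour still lay below the other genes without one, which had 49.7%, 56.9%, 41.0% and 44.4%. The 290 other genes with a neighbour had 64.8%, 77.2%, 55.9% and 60.7%. Their intervals lay apart from those of the other genes without a neighbour in every list, those of AML1-ETO included.

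The KRAB pattern separated the members further. Of the 186 members with it, 25.8% (19.7 to 32.7) and 35.5% (28.6 to 42.8) had an AML1-ETO promoter summit at 12 and 48 h, against 55% (41.6 to 67.9) and 60% (46.5 to 72.4) of the 60 without it. For ETO2-GLIS2 the shares were 15.6% and 17.2% with the pattern, against 41.7% and 45% without. The differences were -29.2 points (-42.4 to -15.0), -24.5 points (-37.7 to -10.0), -26.1 points (-39.5 to -13.1) and -27.8 points (-41.2 to -14.4). Within the clusters alone, with 181 and 54 members, they were -31.8, -27.4, -26.4 and -29.0 points, and their intervals also stayed below 0.

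The pattern misses some genes known to carry a KRAB domain, such as ZNF350. A wider pattern, added after the values were seen, took in 198 members and gave differences of -29.0, -23.5, -27.1 and -29.7 points. KRAB genes on other chromosomes were bound more often than KRAB members. Their promoter shares were 54.1% and 66.3% in the AML1-ETO lists and 35.7% and 39.8% in the ETO2-GLIS2 lists, and the members lay below them by 28.3, 30.8, 20.1 and 22.6 points (differences -28.3, -30.8, -20.1 and -22.6, all 4 intervals below 0). The members without the pattern had intervals of the difference from their counterparts on other chromosomes that included 0 in 3 lists, and a difference of -14.4 points (-28.4 to -0.889) in AML1-ETO at 48 h. Members with fewer than 9 fingers had AML1-ETO promoter summits at 48 h in 55.6% of 45 genes. The shares were 37.6% of 125 genes with 9 to 14 fingers and 38.7% of 75 genes with more than 14, and these intervals overlapped. At 12 h the AML1-ETO shares were 53.3% (37.9 to 68.3), 28% (20.3 to 36.7) and 28%. For ETO2-GLIS2 they were 40% (25.7 to 55.7), 14.4% (8.76 to 21.8) and 22.7% at 12 h. At 48 h they were 40% (25.7 to 55.7), 17.6% (11.4 to 25.4) and 24%. In each list but AML1-ETO at 48 h, the intervals below 9 and at 9 to 14 fingers were apart. Those below 9 and above 14 overlapped.

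**Figure D4:**
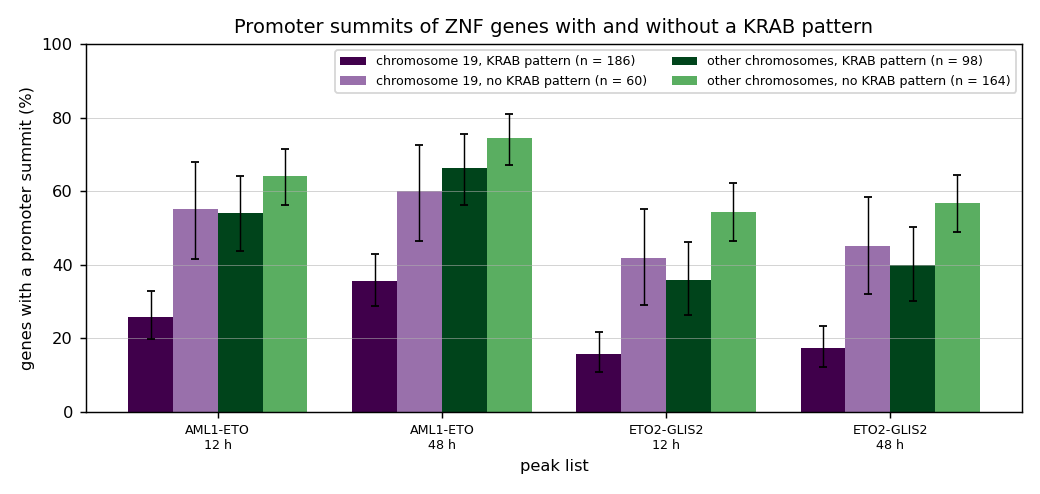
Bars give the percentage of ZNF genes with a promoter summit in each of the 4 peak lists, split by chromosome (19 or other) and by the KRAB pattern, with 95% Clopper-Pearson intervals. The members with the pattern (n = 186) have the lowest bar in every list, from 15.6% in ETO2-GLIS2 at 12 h to 35.5% in AML1-ETO at 48 h.

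Along the chromosome, 235 members fell into 9 clusters of at least 5 genes, with neighbours at most 1 Mb apart, and 11 lay outside them. Cluster 4, from ZNF101 to ZNF254 (chr19:19779605-24312770), had few promoter summits among its 37 members, with 24.3% and 27.0% in the AML1-ETO lists and 8.11% and 5.41% in the ETO2-GLIS2 lists. Cluster 8, from ZNF175 to ZNF331 (chr19:52074536-54083523, 39 members), had 15.4% and 28.2% in the former and 15.4% and 12.8% in the latter. In cluster 5, from ZNF302 to ZNF792, 0 of 5 members had a promoter summit in any list, which allows a share of up to 52.2% by the exact interval.

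Apart from ETO2-GLIS2 at 12 h in cluster 6, the shares were higher in the other clusters, though most intervals overlapped. Cluster 6, from ZNF565 to ZNF573 (26 members), had 30.8% and 46.2% for AML1-ETO but 7.69% and 15.4% for ETO2-GLIS2. Cluster 9, next to the end of the long arm (ZNF628 to ZNF446, chr19:55987984-58992597), held 59 members, of which 33.9% and 49.2% had AML1-ETO and 25.4% and 35.6% had ETO2-GLIS2. Its 48 h interval for ETO2-GLIS2 (23.6 to 49.1) did not overlap that of cluster 4 (0.661 to 18.2). In cluster 2, from ZNF557 to ZNF846 (chr19:7069714-9903856), 53.3% and 60% of 15 members had AML1-ETO and 26.7% had ETO2-GLIS2 at either time. Of the 11 members outside the clusters, 8 had an AML1-ETO promoter summit at either time (72.7%, 39.0 to 94.0), and 6 and 7 had ETO2-GLIS2 (54.5% and 63.6%).

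**Figure D5:**
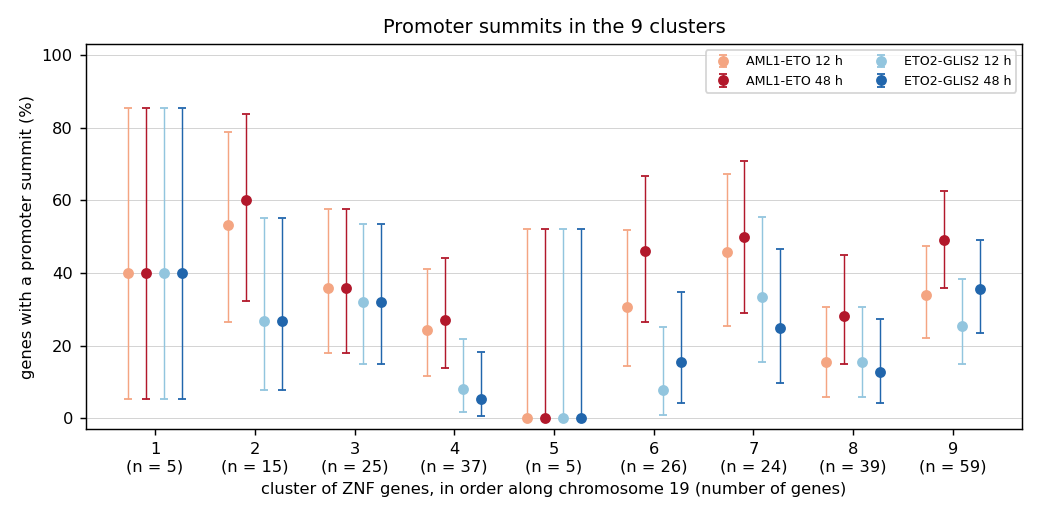
Points give the percentage of the zinc finger genes of each of the 9 clusters, numbered along chromosome 19, that have a promoter summit in each peak list, with 95% Clopper-Pearson intervals. Clusters 4, 5 and 8 hold the lowest points for both proteins at 48 h, and the intervals of the smaller clusters are wide.

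The next question was whether the long last exon, which codes for the fingers, was bound. Last-exon summits were rare. AML1-ETO had one at 8 members at 12 h (3.25%, 1.41 to 6.31) and at 9 members at 48 h (3.66%, 1.69 to 6.83), against 9.68% and 13.0% of the other genes. ETO2-GLIS2 had one at 2 members at each time (0.813%, 0.0986 to 2.91), against 4.29% and 6.82%. The differences from the other genes were -6.43 points (-8.84 to -3.02), -9.39 points (-12.1 to -5.77), -3.48 points (-4.91 to -1.15) and -6.01 points (-7.69 to -3.53). Against ZNF genes elsewhere they were -4 points (-8.12 to -0.0309), -9.32 points (-14.2 to -4.58) and, for ETO2-GLIS2 at either time, -3.77 points (-7.07 to -0.906). All members, those outside the clusters included, were also compared with non-members inside the clusters. The AML1-ETO differences were -2.921 points (-7.994 to 1.197) at 12 h and -5.601 points (-11.32 to -0.8434) at 48 h. For ETO2-GLIS2 they were -3.508 points (-7.877 to -0.456) and -2.891 points (-7.073 to 0.007824). The intervals for AML1-ETO at 12 h and ETO2-GLIS2 at 48 h thus included 0. Members outside the clusters held 4 of the 9 genes with AML1-ETO in the last exon at 48 h, which is 36.4% (10.9 to 69.2) of these 11 members. In the AML1-ETO 12 h, ETO2-GLIS2 12 h and ETO2-GLIS2 48 h lists the same 11 had a last-exon summit at 0, 0 and 1 genes.

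Per length of exon the contrast was larger. Summits within 1 kb of a start site were not counted, but the length was that of the whole exons, parts near a start site included. The members' last exons held 8.79 and 9.88 AML1-ETO peaks per Mb at 12 and 48 h and 2.197 ETO2-GLIS2 peaks per Mb at either time. The other genes held 89.8 and 133 AML1-ETO peaks per Mb and 38.4 and 64.4 ETO2-GLIS2 peaks per Mb. ZNF genes of other chromosomes, whose last exons are nearly as long, lay between with 30.3, 51.2, 12.5 and 15.7 peaks per Mb. In all, 19 members had a last-exon summit in at least 1 list, 17 of them in 1 list and 2 in 2 lists, and none in 3 or more.

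The peaks that did fall in a last exon were mostly weak. Their median rank was 74.3% of the AML1-ETO list at 12 h and 71.2% at 48 h, against 59.5% and 55.2% for last-exon peaks of other genes, and the median width was 191.5 and 302 bp. The strongest was that of ZNF574 (18 fingers), at chr19:42583751-42584310 in the AML1-ETO 48 h list, with a rank of 17.3%, 7.53-fold enrichment and a width of 560 bp. The others among the 3 strongest of either AML1-ETO list were ZNF526 (13 fingers, 38.3% at 48 h), ZNF580 (3 fingers, 50.7% at 12 h), ZNF724 (14 fingers, 59.6% at 12 h), ZNF536 (10 fingers, 60.4% at 48 h) and ZNF350 (8 fingers, 63.0% at 12 h). Of these, ZNF350 encodes a KRAB repressor that binds BRCA1, and ZNF536 a repressor of neuronal differentiation. In the ETO2-GLIS2 lists the last-exon peaks lay at ZNF823 (91.8%) and ZNF850 (91.9%) at 12 h and at ZNF780B (86.8%) and ZNF324 (96.0%) at 48 h. ZNF324 was the member with a last-exon summit of both proteins at 48 h, and its AML1-ETO peak ranked at 71.2% with a width of 577 bp. The widest last-exon peak of the AML1-ETO 12 h list was at ZNF414, with 249 bp and a rank of 81.0%, and its summit lay 1220 bp from the nearest start site. In the ETO2-GLIS2 12 h list the widest was that of ZNF823, with 307 bp.

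The finger-coding exons were not poor in the Runt sequence, taking its 2 forms together. They held 1.03 matches per kb, against 0.895 per kb in the last exons of other genes. TGTGGT was the more frequent in members, with 0.905 against 0.681 per kb, and TGCGGT the less frequent, with 0.123 against 0.215. At least 1 match was in 222 of 246 members (90.2%), against 47.4% of the other genes' shorter last exons and 81.9% of those of ZNF genes elsewhere. Of the matches in members, 62.8% lay on the strand of the gene. In the coding sequences, 270 of 314 matches on the coding strand began at the first base of a codon (86.0%) and 249 began inside a finger (79.3%), where TGTGGT spells the cysteine and glycine codons that recur in each finger. ZNF227 (18 fingers, KRAB pattern) held 11 such matches in frame, the most of any member. A stretch of 252 bases of its last exon shows the repeat, with the Runt sequence in capitals.
ZNF227 (last exon, chr19:44739643-44739894, plus strand): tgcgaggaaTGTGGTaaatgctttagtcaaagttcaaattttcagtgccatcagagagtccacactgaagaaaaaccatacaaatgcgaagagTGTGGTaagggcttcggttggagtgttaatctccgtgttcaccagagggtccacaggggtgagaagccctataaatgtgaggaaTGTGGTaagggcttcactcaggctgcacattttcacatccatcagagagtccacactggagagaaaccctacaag

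This stretch held 3 matches, and ZNF227 had no last-exon summit in any list. The GLIS core was scarce in these exons, with 0.0879 matches per kb in members and 0.565 in the other genes. The mean GC content was 42.4% in the members' last exons and 56.3% in those of the other genes. Of the 32-base words in the members' last exons, a median of 12.45% occurred at more than 1 place in the genome, against 0% in the other genes. A read no longer than such a word cannot be placed uniquely, and a longer read may be. In the genes with under 10% of such words, 110 members and 880 other genes, the last-exon shares were 4.55% against 10.6% for AML1-ETO at 12 h and 5.45% against 13.1% at 48 h. For ETO2-GLIS2 they were 0.909% against 4.89% (difference -3.98, -5.77 to 0.269, an interval that includes 0) and 0% against 8.07%, where 0 of 110 members allows a share of up to 2.73%.

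Introns and inner exons also held few summits. AML1-ETO had a summit elsewhere in the gene at 28 members at 12 h (11.4%, 7.70 to 16.03) and at 48 members at 48 h (19.5%, 14.8 to 25.02), against 43.0% and 56.8% of the other genes. ETO2-GLIS2 had one at 7 members (2.85%, 1.15 to 5.78) and 10 members (4.07%, 1.97 to 7.35), against 25.8% and 26.8%. The differences were -31.6 points (-36.1 to -26.3), -37.3 points (-42.6 to -31.2), -23.0 points (-26.0 to -19.2) and -22.7 points (-25.9 to -18.6). Here all members, those outside the clusters included, also lay below the other genes inside the clusters. The gaps were 21.3, 24.9, 19.4 and 16.9 points (differences -21.3, -24.9, -19.4 and -16.9, all 4 intervals below 0). Members are the longer genes, with a median of 25819 bp against 13643 bp.

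The strongest of these peaks lay at a few genes. ZNF627 had 5 AML1-ETO peaks of this kind at 12 h and 16 at 48 h, the strongest at 7.72% and 8.22% of the lists. ZNF536 had 7 and 12, with 7.73% and 9.30%, and 3 and 2 ETO2-GLIS2 peaks with ranks of 28.4% and 29.5%. ZNF577 (7 fingers, KRAB pattern) held the widest AML1-ETO peaks, with 3005 bp at 12 h and 4616 bp at 48 h. ZNF808, whose loss is known to impair the development of the pancreas, had AML1-ETO peaks at 9.19% and 10.3% and an ETO2-GLIS2 peak at 22.2% at 48 h. The strongest ETO2-GLIS2 peaks of this kind lay in ZNF296 (6 fingers), 1131 bp from its start site, with ranks of 8.31% and 6.23% and a width of 1978 bp at 48 h. The ETO2-GLIS2 12 h peak at 43.1% was shared by ZNF580, where it is a promoter peak, and the overlapping gene ZNF581, where it lies 1087 bp from the start.

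In the promoter sequence, from 250 bases before to 50 after the representative start site, the members differed most from the other genes in the ETS sequence. The ETS sequence was present in 48 of 246 member promoters (19.5%, 14.8 to 25.02), against 5.81% of the other genes of chromosome 19, 13.7% of ZNF genes elsewhere and 6.06% of all 19813 promoters. The Runt sequence was in 18.7% of member promoters and 18.8% of all promoters, and CAGCTG in 18.3% and 17.6%. The GLIS core was less frequent, with 4.07% (1.97 to 7.35) against 8.61% of all promoters and 12.3% of the other genes of chromosome 19. These shares are descriptions of letters, and windows of the same length differ in base composition.

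Member promoters with and without a peak differed little in these letters. The ETS sequence was in 18.6% of members with AML1-ETO at 48 h and in 20.1% of those without, and the Runt sequence in 21.6% (14.04 to 30.8) and 16.7% (10.98 to 23.8). The GC content differed more, with a median of 61.3% (59.3 to 62.7) with AML1-ETO and 58.3% (57 to 59.7) without, and of 63.7% (61.3 to 66) with ETO2-GLIS2 and 58.3% (57.3 to 59.3) without. All member promoters had a median of 59.3%, against 64.3% in the other genes. At the promoter summits themselves, 200 bp windows held the Runt sequence at 28.3% and 25.6% of member AML1-ETO peaks at 12 and 48 h, against 12.8% and 12.0% of windows 1 kb to either side. The GLIS core was in 16.1% of member ETO2-GLIS2 summits at either time, against 4.46% and 3.23% of the side windows. The intervals of these shares were apart for the Runt sequence and overlapped for the GLIS core. At promoter summits of the other genes, the Runt sequence was in 22.3% and 21.4% of AML1-ETO windows, against 15.4% and 15.65% beside them. The GLIS core was in 13.45% and 11.8% of their ETO2-GLIS2 windows, against 8.78% and 8.97%. The intervals of these summit shares overlapped those of the members. The ETS sequence was in 6.4% (2.80 to 12.2) of member AML1-ETO summits at 48 h, against 0.4% (0.0101 to 2.21) of side windows, with intervals apart. At 12 h it was in 5.31% against 1.77%, with intervals that overlap. For ETO2-GLIS2 it was in 8.93% and 6.45% of member summits against 1.79% and 1.61%, also with intervals that overlap. The mean GC content was between 61.3% and 67.1% at the members' summits and between 48.4% and 50.7% beside them, and its part in these shares was not tested.

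The partners of KRAB zinc finger proteins had promoter peaks more often than most genes. Of 15 cofactor genes, 15 had an AML1-ETO promoter summit at 12 h and at 48 h, and 14 and 12 had an ETO2-GLIS2 summit, against 51.9%, 57.3%, 41.1% and 44.2% of all protein-coding genes. TRIM28, the corepressor that binds the KRAB domain, lies on chromosome 19 itself and had promoter peaks at 7.74% and 4.72% of the AML1-ETO lists and at 3.72% and 1.91% of the ETO2-GLIS2 lists. SETDB1, the H3K9 methyltransferase, ranked at 20.9% and 6.61% for AML1-ETO and at 56.1% and 84.3% for ETO2-GLIS2. HDAC1, a histone deacetylase of the NuRD complex, held one of the strongest ETO2-GLIS2 peaks, at 0.0812% and 0.0565% of the lists, and ranked at 12.9% and 8.97% for AML1-ETO. CBX3, an HP1 protein, ranked at 1.41% and 0.542% for AML1-ETO with a width of 8288 bp at 48 h, and at 15.97% and 16.7% for ETO2-GLIS2. ATF7IP, the partner of SETDB1, ranked at 2.28% and 0.886% for AML1-ETO and had no ETO2-GLIS2 promoter peak. TASOR and MPHOSPH8, components of the HUSH complex that silences transposable elements, ranked at 2.51% and 19.96% for AML1-ETO at 48 h.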

How the data were processed

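Peak lists of 4 anti-HA ChIP libraries from U937 lines were analysed, and the inputs and reads were not analysed here. Per the submitters' processing notes the authors used hg19, Bowtie2 2.2.9, SAMtools 1.7, MACS2 2.1.1.20160309 and deepTools. The settings of the peak caller, removal of duplicates and filters on mapping quality or artefact regions are not given in the sources used here, and each of these can change which peaks are listed in repeated sequence. The deposited fold enrichment is a linear ratio over the local background at the summit. The deposited -log10 q-value ranked peaks within a list. The deposited summit is a distance in bp from the peak start. Both values grow with depth. Read totals are stated by the study and differ between the ChIP libraries, but the peak lists carry none, and no correction for depth was made here.

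Genes came from GENCODE release 44 lifted to GRCh37, with peaks of chromosomes 1 to 22, X and Y. A summit counted for each gene that holds it, first as promoter (1 kb), then last exon of the representative transcript, then elsewhere. Fingers and the KRAB pattern were read from the translated annotated coding sequence, since no protein table was given. Finger classes were set after the counts were seen. Members and gene lists were chosen with earlier results of these data known. Named genes were the 3 strongest per list and place, the widest peaks and the 3 largest differences in rank at 48 h in each direction. Genes in a last exon in all 4 lists were also to be named, and there were none. Python 3.11.15, scipy 1.17.1, statsmodels 0.14.6 and pysam 0.24.0 were used. The placement of 1436 simulated summits, and the counts in 1000 simulated windows and 1000 simulated proteins, were 100% right. As alternatives, results were recomputed with -log10 q limited to 10 or more, lists of equal length (28325 peaks), a 3 kb promoter, 1 start site per gene, any last exon, symbols of digits only, no peaks in repeated sequence and other overlap rules. The restriction to genes with under 10% repeated words was added after the data were seen.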

Additional observations from a re-analysis of the deposited data

How the results depend on the processing

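Of 82 recomputed values of 16 results, 57 moved by less than their interval. The 68 that are differences between members and other genes stayed below 0, of which 3 are identical by construction, and 2 had an interval that included 0. With -log10 q limited to 10 or more, the promoter differences between members and the other genes were -13.6 and -13.5 points for AML1-ETO at 12 and 48 h and -15.1 and -16.1 for ETO2-GLIS2. The last-exon differences were then -2.44 and -2.54 for AML1-ETO and, at 48 h, -1.52 for ETO2-GLIS2 (-2.38 to 0.119, which includes 0), and those elsewhere in the gene were -15.2, -19.7, -12.4 and -12.5. With lists of equal length, the differences elsewhere were -19.7 and -21.9 for AML1-ETO, and that in the last exon was -3.13 at 48 h. A stricter or shorter list holds fewer genes with a summit in either group. With a 3 kb promoter, the differences were -28.5 and -31.2 for AML1-ETO and -28.9 for ETO2-GLIS2 at 12 h. In genes with under 10% repeated words, added after the data were seen, the ETO2-GLIS2 last-exon difference at 48 h was -8.07, and at 12 h it was -3.98 (-5.77 to 0.269).

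The share of ETO2-GLIS2 promoter peaks shared with AML1-ETO moved with the overlap rule, to 57.1% at 12 h with 50% covered, to 39.3% and 59.7% at 12 and 48 h with summits within 200 bp, and to 66.1% and 83.3% with lists of equal length. For the last exon at 48 h, 0% of 2 and 0% of 1 peaks were shared with 50% covered and with lists of equal length, against 1 of 2. Limiting both lists to values of 5 or more left no last-exon peak of ETO2-GLIS2. The cause of these moves was not tested. No paired analysis was possible because the labels give no replicate numbers and there was 1 ChIP library per condition, so no library could be left out. The lists were not brought to equal depth, and a share of 0 may rise with it.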
